A study of Mus musculus with 24 samples.

Results

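The transcripts of 10 genes of glycolysis and lactate handling (Hk1, Hk2, Gpi1, Pfkl, Pfkp, Pfkfb3, Aldoa, Pkm, Ldha and Slc16a1) were followed in the distal small intestine of mice fed a control or a high-fat diet with and without metformin. The genes were taken by symbol from a table of 55536 genes, and all 10 were among the 13505 genes that passed the filter on low counts. RNA sequencing had been done on 1 piece of tissue from each of 24 mice of the inbred strain C57BL/6N, which were 4 to 5 weeks old when the diets began. CD animals ate a control diet with 10% of the energy from fat, HFD animals a high-fat diet with 60%, and CDmetf and HFDmetf animals ate the same diets and drank water with metformin. The drug was dosed at 50 mg/kg body mass a day over the last 10 weeks, the diets having been given for 20 weeks before it and kept on during it. The labels call the animals of the HFD and HFDmetf groups obese, and each group held 3 males (M1 to M3) and 3 females (F1 to F3). No other allele or agent separated the groups.

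Glycolysis splits glucose into pyruvate in the cytosol. Hexokinases trap glucose as glucose 6-phosphate, glucose-6-phosphate isomerase turns it into the fructose form, phosphofructokinase commits it to breakdown, aldolase cleaves it, and pyruvate kinase completes the path. Lactate dehydrogenase then converts pyruvate to lactate, which leaves or enters the cell with a proton through monocarboxylate transporters. Absorptive enterocytes of the small intestine both burn and pass on sugar, and metformin, an oral antidiabetic drug that accumulates in the gut wall, is known to raise glucose use and lactate release there. Whether the transcripts of these enzymes moved with the drug or the diet is the question the comparisons address.

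The libraries held 1829690 to 40606442 reads on genes (median 3467307), and every one of the 10 genes was detected in every library, with 29 to 33232 reads per gene and library. CD M3 stood apart, with 85.4% of its reads on 10 genes, mainly of ribosomal RNA type, and HFDmetf F2 followed with 36.6%. The library labelled HFD M2 carried 3355 Xist reads and 0 reads of the Y-linked genes examined, and that labelled HFD F2 carried 1 and 423, so both went against their sex labels, and the main values that rest on them are also given without them. Markers of enterocytes were present in all libraries, but their summed level ranged from 8620 to 70100 CPM (read counts scaled for library size with the trimmed mean of M values, TMM), and Slc2a2, a sugar carrier of the proximal intestine, from 0.61 to 574 CPM, so the pieces differed in makeup. In whole tissue, fewer cells of a type and less RNA per cell cannot be told apart. The labels call the animals of a group biological replicates, and per the study's methods each sequenced animal came from a cage of its own.

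Within the isozyme families, levels were compared per kilobase of exon, as the median over the 24 libraries of CPM divided by the summed length of a gene's annotated exons. Ldha, the muscle-type lactate dehydrogenase subunit that favours lactate formation, was the most abundant of the 10 genes at 189 CPM per kilobase, ranging from 94.0 to 333. Its partner Ldhb, the heart-type subunit, was at 6.16, and the Ldha to Ldhb ratio per kilobase had a median of 34.5 and ran from 8.81 to 131. Aldoa, the ubiquitous aldolase, stood at 98.1, with a range of 68.4 to 158. Pkm, the pyruvate kinase gene whose splice forms serve most tissues, stood at 79.4 and Pklr, the liver and red cell form, at 41.8.

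Upstream in the pathway the levels were lower. Gpi1, glucose-6-phosphate isomerase, was at 50.3 CPM per kilobase. Pfkp, the platelet-type phosphofructokinase, was at 18.7, Pfkl, the liver type, at 6.32 and Pfkm, the muscle type, at 2.31. Of the hexokinases, Hk2 was at 6.11 and Hk1 at 3.46, both far below Hkdc1, a hexokinase-like gene, at 48.1. Pfkfb3, which makes and breaks fructose 2,6-bisphosphate, the activator of phosphofructokinase, was at 3.89 and its relative Pfkfb4 at 12.5. Slc16a1, which encodes the lactate carrier MCT1, was at 18.1, and Bsg, the chaperone that brings it to the membrane, at 187.

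The order of the 10 genes per kilobase was held in nearly every library where the medians were far apart. Ldha exceeded Aldoa in 23 of 24 libraries, Pkm exceeded Gpi1 in 24, Gpi1 exceeded Pfkp in 24, Slc16a1 exceeded Pfkl in 24 and Hk2 exceeded Pfkfb3 in 23. The other neighbours did not keep an order, since Aldoa exceeded Pkm in 16 libraries, Pfkp exceeded Slc16a1 in 11, Pfkl exceeded Hk2 in 14 and Pfkfb3 exceeded Hk1 in 15.

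**Figure D1:**
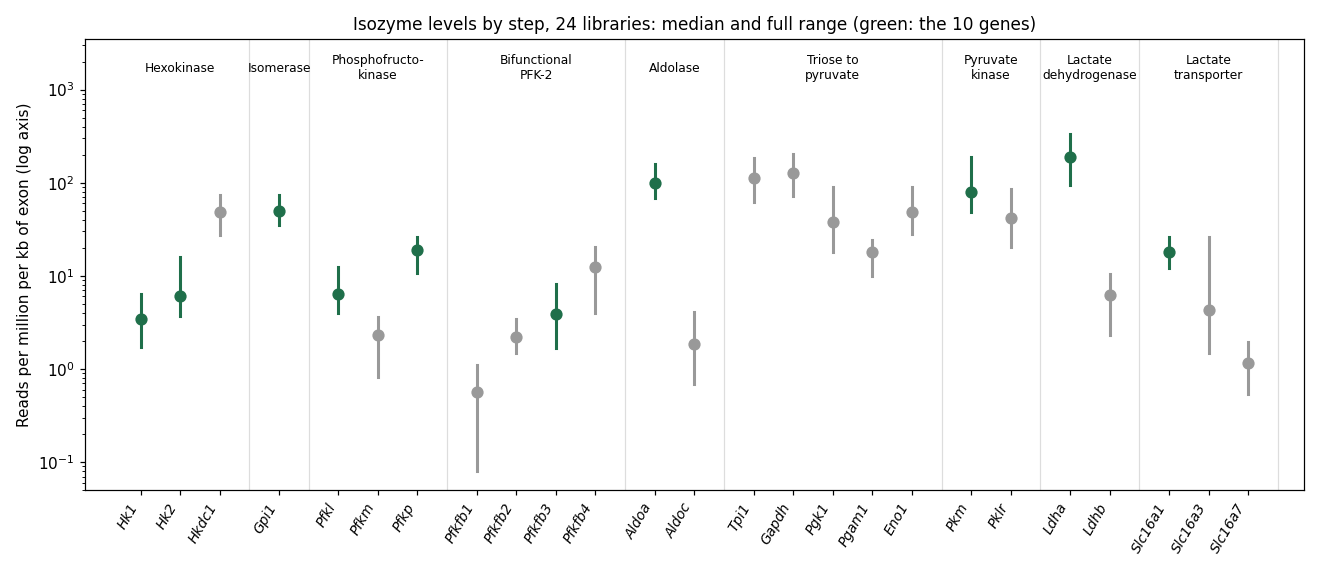
Level of each isozyme as CPM per kilobase of exon on a log axis, grouped by step of glycolysis and lactate handling, with a point at the median and a line over the full range of the 24 libraries; the 10 genes are in green and other family members in grey. Ldha at 189 stands above Ldhb at 6.16, and Pfkp at 18.7 above Pfkl at 6.32.

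The promoters of 3 of the genes are shown because they differ in ACGTG and CACGTG. Hypoxia-inducible factors and E-box proteins, both known regulators of glycolytic genes, can read DNA through these letters. GCGTG, another form for hypoxia-inducible factors, was not searched for or marked, and it occurs in the printed Pfkl and Pfkp windows. Each sequence is the 250 bases before an annotated start in RefSeq (build GRCm38.p6), read along the gene, with ACGTG (or CACGT on the other strand) and CACGTG in capitals. Ldha, on the plus strand at chr7:46845554-46845803, carried the letters at 3 places, 2 of them CACGTG, and the window before its other annotated start carried none. Pfkl, at chr10:78009808-78010057, and Pfkp, at chr13:6648772-6649021, both on the minus strand, carried no ACGTG or CACGTG.
Ldha: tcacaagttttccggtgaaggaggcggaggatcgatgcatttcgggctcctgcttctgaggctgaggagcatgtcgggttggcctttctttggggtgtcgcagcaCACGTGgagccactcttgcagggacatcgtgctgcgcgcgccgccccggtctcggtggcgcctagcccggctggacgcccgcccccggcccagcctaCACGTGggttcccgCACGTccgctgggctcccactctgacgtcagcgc
Pfkl: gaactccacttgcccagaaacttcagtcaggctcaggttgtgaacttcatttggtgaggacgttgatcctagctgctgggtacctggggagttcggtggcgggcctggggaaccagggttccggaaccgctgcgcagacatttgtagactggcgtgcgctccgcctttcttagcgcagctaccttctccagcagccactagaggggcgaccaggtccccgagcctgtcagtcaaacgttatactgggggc
Pfkp: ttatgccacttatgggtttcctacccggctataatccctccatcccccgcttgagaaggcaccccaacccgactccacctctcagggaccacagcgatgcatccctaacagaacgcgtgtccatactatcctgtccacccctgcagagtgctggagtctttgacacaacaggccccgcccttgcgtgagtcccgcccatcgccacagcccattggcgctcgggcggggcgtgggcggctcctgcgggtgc
Windows were found for all 10 genes (16 windows in all), and 6 of them held ACGTG before at least 1 annotated start (Hk2, Pfkfb3, Aldoa, Pkm, Ldha and Slc16a1), beside 18.5% of all 27025 genes in the RefSeq table. CACGTG, which contains ACGTG, was found for 3 (Pfkfb3, Ldha and Slc16a1), beside 6.86% of all genes. The members had more windows per gene than all genes, which had 32851 windows, 16.6% of them with ACGTG. The Aldoa windows with ACGTG overlap and share the match. Within 100 bases before a start, 4 members held ACGTG, beside 9.28% of all genes. These are matches of letters and not sites, and no binding was measured.

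Pfkl was the member that differed most with the diet. It encodes the liver-type phosphofructokinase subunit, lies on chromosome 10 (77986947 to 78010083, minus strand, GRCm38) and overlaps no other annotated gene. In CD animals it was at 41.6, 29.3 and 39.8 CPM in M1 to M3 and at 43.4, 26.4 and 32.9 CPM in F1 to F3. In HFD animals it was at 82.0, 28.1 and 77.0 CPM in the males and 56.07, 53.18 and 39.01 CPM in the females. Of the 6 HFD libraries, 4 lay above every CD library, and those labelled HFD M2 and HFD F3 lay within the CD range.

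With metformin the levels were 40.2, 42.8 and 27.7 CPM in CDmetf males and 50.6, 32.8 and 30.3 CPM in CDmetf females. They were 72.7, 59.0 and 46.2 CPM in HFDmetf males and 51.5, 45.1 and 40.6 CPM in HFDmetf females. All 6 pairs of the same sex and number were higher in HFDmetf than in CDmetf, and 3 of the 6 HFDmetf libraries lay above every CDmetf library. Over both drug states, 7 of the 12 high-fat libraries lay above all 12 libraries of the control diet, and the pairs were higher in 11 of 12. The group medians were 54.6 CPM in HFD, 48.9 in HFDmetf, 36.5 in CDmetf and 36.3 in CD, an order whose first pair and last pair did not differ beyond their spread (logFC −0.07 for HFDmetf vs. HFD and 0.06 for CDmetf vs. CD).

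**Figure D2:**
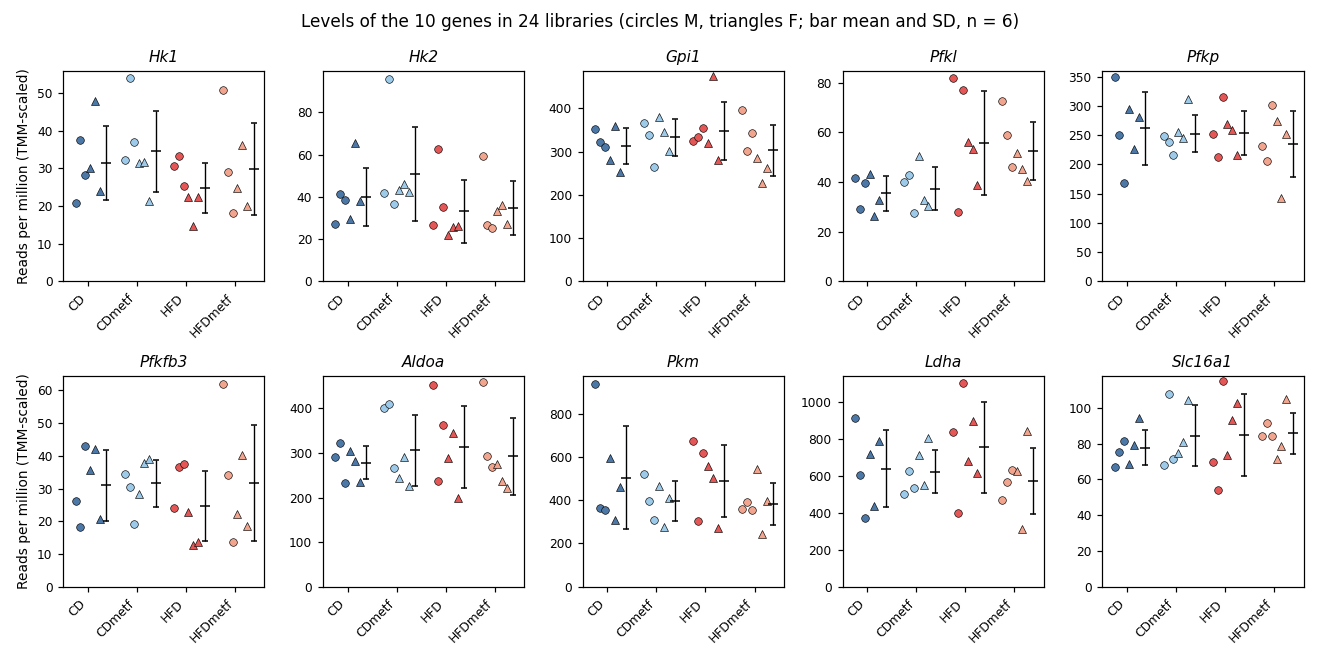
Level of each of the 10 genes in every library, in CPM, by group; circles are animals labelled male, triangles animals labelled female, and bars the mean and SD of 6 animals. Of the Pfkl points, 7 of the 12 on the high-fat diet lie above all 12 of the control diet, and the groups of the same drug state or diet overlap for all 10 genes.

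In edgeR's quasi-likelihood test across 13505 genes, the logFC of Pfkl was 0.63 (SE 0.18, 1.54-fold, FDR = 0.995) for HFD vs. CD and 0.49 (SE 0.18, FDR = 0.626) for HFDmetf vs. CDmetf. Taken over both drug states it was 0.56 (SE 0.13, 95% interval 0.29 to 0.82, 1.47-fold, FDR = 0.251), which ranked 13th of 13505 genes by p and did not pass the threshold of 0.05. The DESeq2 test of the same contrast passed it (0.54, FDR = 0.0238), limma-voom did not (0.54, FDR = 0.122), and leaving out the library labelled HFD M2 brought the edgeR value past it (0.62, FDR = 0.0475). Without both libraries that go against their sex labels it was 0.61 (FDR = 0.0880), and for HFD vs. CD 0.75 (SE 0.17, FDR = 0.397).

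Within replicate numbers, the mean paired log2 difference of Pfkl for the diet was 0.56, 0.47 and 0.59 for numbers 1, 2 and 3, and by sex label it was 0.65 in males and 0.42 in females. Of 7 macrophage markers, 7 were higher with the diet and 3 had an unadjusted p under 0.05, beside 5.95% of all genes. With metformin over both diets 7 were also higher and 5 had such a p, beside 5.25% of all genes. Pfkl had a logFC of −0.006 there. The markers' summed level had a median of 99.2 CPM in CD (82.5 to 149), 142 in CDmetf (100.3 to 177), 130 in HFD (102 to 156) and 167 in HFDmetf (125 to 233). With a macrophage score, chosen after seeing the data, as a further term the logFC of Pfkl for the diet was 0.41 (FDR = 0.749). With an enterocyte score as a term it was 0.56 and with a smooth muscle score 0.56, and without CD M3 and HFDmetf F2 it was 0.56. The part of tissue makeup in the result was not tested.

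**Figure D3:**
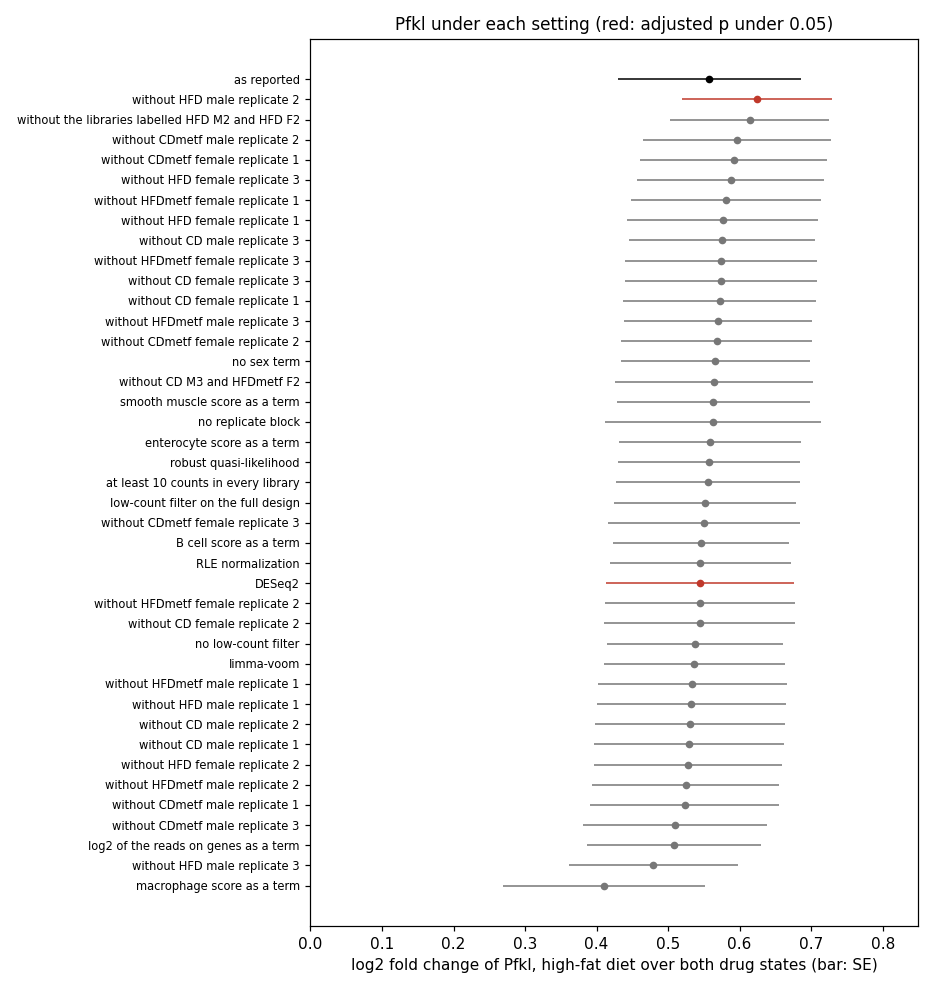
Log2 fold change of Pfkl for the high-fat diet over both drug states (horizontal axis, with SE bars) as reported and under 40 other settings; red marks an adjusted p under 0.05. All estimates lie between 0.41, with a macrophage score as a term, and 0.62, without HFD male replicate 2, and the adjusted p passed the threshold in that setting and with DESeq2.

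No member passed an adjusted p of 0.05 in HFD vs. CD, where 0% of all genes did. At an unadjusted p under 0.05 stood 1 of the 10 members (Pfkl) and 4.75% of all genes. DESeq2 called 0 members beside 12 of 13505 genes, and limma-voom 0 members beside 0 genes. The estimates of the other 9 members lay between −0.39 for Pfkfb3 and 0.24 for Ldha, with 6 of the 10 members higher and 4 lower. The median logFC was 0.06 over the members and 0.01 over all genes.

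In HFDmetf vs. CDmetf, again 0 of 10 members and 0% of all genes passed the adjusted threshold, and 1 member (Pfkl) had an unadjusted p under 0.05 beside 7.55% of all genes. DESeq2 called 0 members there beside 4 of 13505 genes, and limma-voom 0 members beside 0 genes. Of the members, 2 had higher and 8 lower estimates (median −0.10, all genes 0.03). The high-fat diet contrast over both drug states gave 0 of 10 members and 0% of genes at the adjusted threshold in edgeR, and 2 of 10 members beside 5.95% of genes at an unadjusted p under 0.05. DESeq2 called 1 member there (Pfkl) beside 54 of 13505 genes, and limma-voom 0 members beside 4 genes. Of the members, 5 had higher and 5 lower estimates (median −0.01, all genes 0.01).

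The second of these was Hk2, the insulin-responsive hexokinase of muscle, fat and proliferating cells, lower by 0.38 on the log2 scale (SE 0.17, 0.767-fold, FDR = 0.821). It ranged from 27.1 to 65.6 CPM in CD (median 38.4), 36.7 to 95.8 in CDmetf (median 42.8), 22.1 to 62.6 in HFD (median 26.5) and 25.4 to 59.3 in HFDmetf (median 30.4). The groups overlapped, and in each of them a single library was far above the rest: CD F2, CDmetf M2, HFD M2 and HFDmetf M1. Hk1, the widely expressed form, went the same way without an unadjusted p under 0.05 (−0.26, SE 0.15, FDR = 0.891). The Hk2 p exceeded 0.05 with a smooth muscle score as a term (−0.27, SE 0.15), whose 8 tested markers were all lower with the diet, and without CD M3 and HFDmetf F2 (−0.36, SE 0.20), and in 12 of the 24 fits that each left out 1 library (−0.51 to −0.31). Without HFD M2 and HFD F2 the logFC was −0.42 (SE 0.18).

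**Figure D4:**
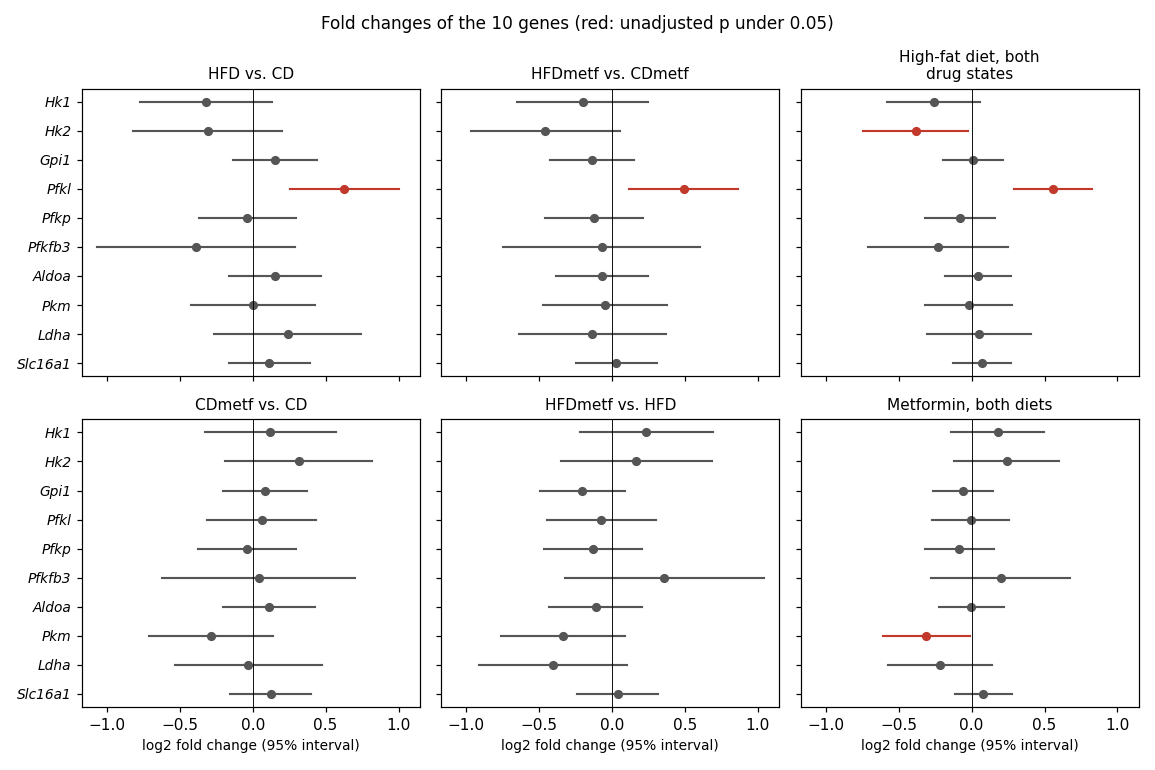
Log2 fold changes of the 10 genes with 95% intervals from edgeR's quasi-likelihood fit of 24 libraries, for the diet (upper row) and metformin (lower row); red marks an unadjusted p under 0.05. For the diet Pfkl is on the right in all 3 panels (0.63, 0.49 and 0.56), and with metformin Pkm has the only interval that leaves out 0.

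Metformin came with small differences in these transcripts, of which Pkm had the smallest p. Over both diets, 0 of 10 members and 0% of all genes passed the adjusted threshold in edgeR. DESeq2 and limma-voom called 0 members and 0 genes, and 1 member (Pkm) had an unadjusted p under 0.05 beside 5.25% of all genes. The members' median logFC was −0.00 and that of all genes −0.01. The estimates were negative for 6 members and positive for 4 (Hk1, Hk2, Pfkfb3 and Slc16a1).

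Pkm, which lies on chromosome 9 (59656368 to 59679375, plus strand), was at 939, 364 and 354 CPM in CD males and 597, 310 and 461 CPM in CD females. In CDmetf animals it was at 520, 397 and 309 CPM in the males and 464, 277 and 412 CPM in the females. CD M1 was by far the highest library, and the 2 groups otherwise overlapped. In HFD animals it was at 674, 304 and 618 CPM in the males and 556, 500.3 and 271 CPM in the females, against 357, 391 and 355 CPM in HFDmetf males and 544, 242 and 397 CPM in HFDmetf females.

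Over both diets Pkm was lower by 0.31 with metformin (SE 0.15, 0.807-fold, 95% interval −0.61 to −0.01, FDR = 0.770), and lower in 9 of 12 pairs. Within replicate numbers the mean paired difference was −0.54, −0.18 and −0.15 for numbers 1 to 3. The p exceeded 0.05 when any of 14 of the 24 libraries was left out (lowest and highest logFC −0.37 and −0.22), without HFD M2 and HFD F2 (−0.27, SE 0.15), and in a fit with no replicate block (−0.34, SE 0.19). With an enterocyte score as a term the logFC was −0.15 (SE 0.13) and with a macrophage score −0.17 (SE 0.17), the macrophage markers being higher with metformin in 7 of 7 cases. The part of these markers in the result was not tested. Pkm overlaps Gm49759, a gene model of the same strand at 11.8 CPM.

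The lactate end of the pathway did not separate by drug. Ldha, on chromosome 7 (46841475 to 46855627, plus strand), was at 913, 604 and 373 CPM in CD males and 720, 435 and 791 CPM in CD females. In CDmetf animals it was at 503, 625 and 537 CPM in the males and 712, 553 and 805 CPM in the females. In HFD animals it was at 837, 397 and 1102 CPM in the males and 679, 901 and 615 CPM in the females, and in HFDmetf animals at 471, 567 and 632 CPM in the males and 625, 311 and 845 CPM in the females. The ranges overlapped in each comparison, and the lowest library of 3 groups was CD M3, the library labelled HFD M2 or HFDmetf F2.

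In HFDmetf vs. HFD, Ldha was the member with the smallest p (logFC −0.41, SE 0.24, 95% interval −0.91 to 0.10, FDR = 0.620), lower in 4 of 6 pairs, and −0.39 (SE 0.27) without HFD M2 and HFD F2. Leaving out 1 library gave −0.52 to −0.23, the latter without HFD M3. Pkm was next (−0.33, SE 0.21, FDR = 0.620). Ldha has 2 pseudogenes by name, between which and the gene the counting could have split reads. No member and 0% of all genes passed the adjusted threshold there, and 0 members had an unadjusted p under 0.05 beside 6.87% of all genes. DESeq2 and limma-voom also called 0 members and 0 genes. The summed level of the enterocyte markers had a median of 52454 CPM in HFD (30255 to 70100) and 32418 in HFDmetf (8620 to 48395), with 10 of 12 markers lower in HFDmetf, and with their score as a term the logFC of Ldha was −0.03 (SE 0.21). Their part in the result was not tested beyond that.

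In CDmetf vs. CD, 0 members and 0% of all genes passed the adjusted threshold in edgeR, and 0 members had an unadjusted p under 0.05 beside 5% of all genes. DESeq2 called 0 members beside 4 of 13505 genes, and limma-voom 0 members beside 0 genes. Pkm had the smallest p (logFC −0.28, SE 0.21, FDR = 0.970), with −0.35 to −0.14 over single left-out libraries and −0.14 without CD M1, and Ldha was at −0.03 (95% interval −0.54 to 0.47). Slc16a1, the lactate carrier, had logFC of 0.12 (SE 0.13) for CDmetf vs. CD and 0.04 (SE 0.13) for HFDmetf vs. HFD. Over both diets its 95% interval with metformin ran from −0.12 to 0.28, and its group medians were 77.3 CPM in CD, 77.7 in CDmetf, 83.6 in HFD and 84.2 in HFDmetf. The HFD and CD libraries serve in 2 contrasts each, so the metformin and diet contrasts are not independent of one another.

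No member was shown to respond to metformin differently on the 2 diets. For the diet by metformin interaction, 0 members and 0% of all genes passed the adjusted threshold in edgeR, and 0 members had an unadjusted p under 0.05 beside 5.76% of all genes. DESeq2 called 0 members beside 4 of 13505 genes, and limma-voom 0 members beside 0 genes. Gpi1, on chromosome 7 (34201330 to 34230336, minus strand), had the smallest p (−0.29, SE 0.20, FDR = 0.815). Its logFC was 0.09 for CDmetf vs. CD and −0.20 for HFDmetf vs. HFD, and its highest library was HFD F2 at 475 CPM. Without HFD M2 and HFD F2 the interaction was −0.18 (SE 0.19), and over single left-out libraries it ran from −0.35 to −0.17, the latter without HFD F2.

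Sex was the other term of the fit. Of the members, 0 passed the adjusted threshold in male vs. female, beside 0.0074% of all genes (1 gene), and 1 member (Aldoa) had an unadjusted p under 0.05 beside 7.23% of all genes. DESeq2 called 0 members beside 21 of 13505 genes, and limma-voom 0 members beside 1 gene. Aldoa had a median of 308 CPM in males (234 to 460) and 260 CPM in females (199 to 346), with the ranges overlapping, and a logFC of 0.33 (SE 0.11, 1.26-fold, FDR = 0.607). With HFD M2 and HFD F2 left out it was 0.40 (SE 0.10, FDR = 0.341). Aldoa has 2 annotated pseudogenes by name, and a second gene identifier of the same symbol held 0 to 20 reads per library and was not used. Over the 8 contrasts the members at an unadjusted p under 0.05 numbered 0 to 2 of 10, beside shares of 4.75% to 7.55% of all genes, which is near the background, so nothing about the 10 genes as a set is read from these counts.

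Ratios of isozymes counted in the same library do not depend on how libraries were scaled. The log2 ratio of Pfkp to Pfkl reads was 2.86 ± 0.41 in CD, 2.78 ± 0.38 in CDmetf, 2.26 ± 0.44 in HFD and 2.14 ± 0.49 in HFDmetf (mean ± SD, n = 6 each). CD M3, at 2.08, lay alone below the other CD libraries, of which the lowest was at 2.76, and HFD M2, at 2.92, was the highest of the HFD libraries. Over both drug states the ratio was lower on the high-fat diet by 0.62 on the log2 scale (SE 0.13, 0.653-fold), in 11 of 12 pairs of the same sex and number (exact two-sided sign-flip permutation test, p = 0.00146, adjusted p = 0.0439 over the 30 ratio tests).

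The difference was −0.60 for HFD vs. CD (6 of 6 pairs lower) and −0.63 for HFDmetf vs. CDmetf (5 of 6 pairs lower), where 6 pairs allow no exact p below 0.03125. The adjusted p rose to between 0.0586 and 0.0879 when any of 22 of the 24 animals was left out with its partner, and it was 0.0516 without pairing and 0.176 without the pairs of HFD M2 and HFD F2. That last setting left 10 pairs, too few for a ratio alone to pass the adjusted threshold in the exact test, whatever its values. It therefore cannot show whether the call rested on those libraries. The logFC of Pfkp itself for the diet was −0.08 (SE 0.11, 95% interval −0.32 to 0.16). Pfkp overlaps Pitrm1, a gene of the opposite strand at 29.1 CPM, and whether reads were counted by strand is not given in the sources used here.

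Hk2 to Hk1, Pkm to Pklr and Ldha to Ldhb did not pass. The smallest p of each was 0.156 for Hk2 to Hk1 (HFDmetf vs. CDmetf, −0.28, adjusted p = 0.781, 5 of 6 pairs lower), 0.0938 for Pkm to Pklr (HFD vs. CD, −0.14, adjusted p = 0.562, 5 of 6 pairs lower) and 0.219 for Ldha to Ldhb (HFDmetf vs. HFD, −0.69, adjusted p = 0.820, 4 of 6 pairs lower), all by the same exact permutation test. Without the pairs of HFD M2 and HFD F2 the difference was −0.14 for Pkm to Pklr and −0.58 for Ldha to Ldhb. The Ldha to Ldhb ratio rested on as few as 9 Ldhb reads in a library.

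**Figure D5:**
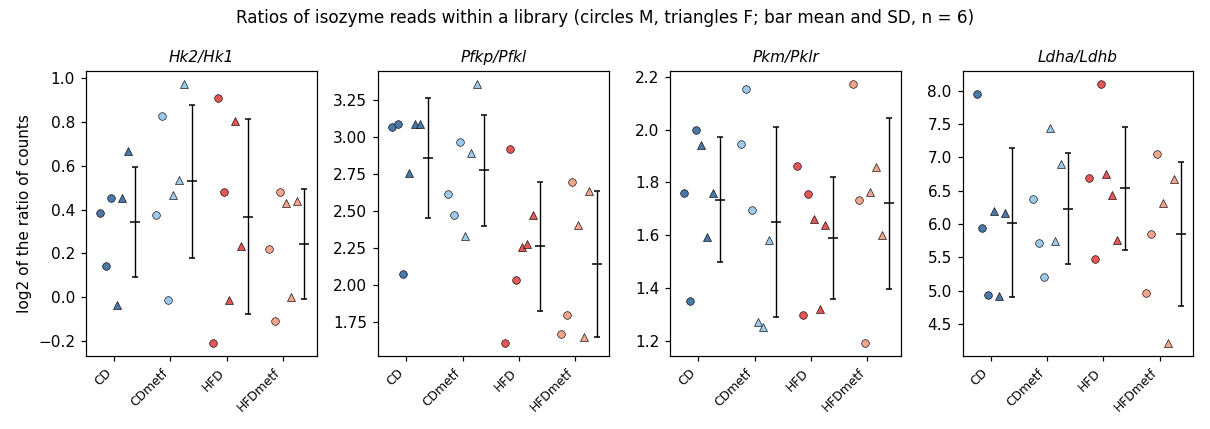
Log2 of the ratio of reads of 2 isozymes in each library, by group; circles are animals labelled male, triangles animals labelled female, and bars the mean and SD of 6 animals. The Pfkp to Pfkl ratio averages 2.86 and 2.78 in the CD and CDmetf groups and 2.26 and 2.14 in the HFD and HFDmetf groups, and the groups overlap in all panels.

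The rest of the pathway was read from lists of related genes. Of 17 tested other glycolytic enzymes, 13 were lower and 4 higher with metformin over both diets (median logFC −0.19, all genes −0.01), and 0 were called. Bpgm, which makes the 2,3-bisphosphoglycerate of red cells, was lower by 0.32 (SE 0.15, FDR = 0.770). In HFDmetf vs. HFD, where 13 of 17 were lower (median −0.32), 3 genes chosen after their values were seen had an unadjusted p under 0.05, beside 6.87% of all genes. Of the 12 enterocyte markers, 10 were also lower there (median −0.74), and their part in the result was not tested. Tpi1, the triose isomerase, was lower by 0.46 (SE 0.20), Gapdh, the glyceraldehyde dehydrogenase, by 0.44 (SE 0.20) and Bpgm by 0.48 (SE 0.21), each with an FDR of 0.620. For the diet over both drug states 12 of the 17 were higher (median 0.08) and 0 were called. Aldoc, the brain-type aldolase at 1.84 CPM per kilobase, was lower by 0.65 (SE 0.18, FDR = 0.376), and Pgam1, a phosphoglycerate mutase, higher by 0.28 (SE 0.12, FDR = 0.795).

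Of 21 tested genes of lactate and pyruvate handling, 10 were higher and 11 lower with metformin, with 0 at an unadjusted p under 0.05, beside 5.25% of all genes. For the diet 9 were higher and 12 lower, 3 of the 21 at an unadjusted p under 0.05, beside 5.95% of all genes, and 0 called. These were Slc16a3, the lactate exporter MCT4 of glycolytic cells (0.83, SE 0.36, FDR = 0.795), Pdk1 (0.26, SE 0.090, FDR = 0.594) and Pdk4 (0.98, SE 0.36, FDR = 0.642), both of which are kinases that switch off pyruvate dehydrogenase. Slc16a3 ranged from 7.92 to 139 CPM, a 17.5-fold spread.

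Among 5 glucose transporters, 3 were lower with metformin and 2 higher. Slc5a1, the sodium-coupled glucose carrier of the brush border, was lower by 0.70 (SE 0.34) and Slc2a5, the fructose carrier, by 0.84 (SE 0.35), neither being called (FDR 0.770 for each). These were the 2 of 5 at an unadjusted p under 0.05, beside 5.25% of all genes. Both carriers varied widely between pieces (Slc5a1 by 19.1-fold). Of the 12 enterocyte markers, 10 had lower estimates with metformin and 0 an unadjusted p under 0.05, and their part in the result was not tested. With the diet 0 of the 5 transporters had an unadjusted p under 0.05, beside 5.95% of all genes.

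Of 12 regulators of glycolysis, 3 were higher and 9 lower with metformin, and 8 higher and 4 lower with the diet, with 0 called. Egln3, a prolyl hydroxylase that marks hypoxia-inducible factor for decay and is itself induced by it, was higher by 0.78 with the diet (SE 0.22, FDR = 0.376) and lower by 0.48 with metformin (SE 0.22, FDR = 0.770). Egln2, another of these hydroxylases, was lower by 0.22 with metformin (SE 0.099, FDR = 0.770). With metformin these 2 of the 12 had an unadjusted p under 0.05, beside 5.25% of all genes. With the diet 1 of the 12 had one (Egln3), beside 5.95% of all genes. Of 10 hypoxia targets outside glycolysis, 7 were higher with the diet and Ddit4 (0.31, SE 0.15, FDR = 0.830), P4ha1 (0.34, SE 0.15, FDR = 0.819) and Kdm3a (0.23, SE 0.10, FDR = 0.795) had an unadjusted p under 0.05, beside 5.95% of all genes. With metformin 4 of these targets were higher and 6 lower, and 0 had such a p, beside 5.25% of all genes.

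The members varied between animals of a group to different degrees. The biological coefficient of variation estimated by edgeR was 38.2% for Pfkfb3, 29.8% for Ldha and 29.3% for Hk2, against 16.8% for Slc16a1, with a median of 21.7% over all genes. Accordingly the 95% interval with metformin over both diets was widest for Pfkfb3 (−0.28 to 0.67) and narrowest for Slc16a1 (−0.12 to 0.28) among the 10. The range over 24 libraries was 4.82-fold for Pfkfb3 (12.9 to 61.9 CPM) and 2.08-fold for Gpi1.

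The genes whose levels followed each member most closely over the 24 libraries (Spearman's rho of log2 CPM among 9590 genes, given as a description, since the libraries share tissue makeup and depth) included other enzymes of the path. Ldha was closest to Gapdh (0.932), Gsto1 (0.928) and Kctd9 (0.921). Pkm was closest to Metrnl (0.927), Eno1 (0.882), the enolase of the same path, and Naa60 (0.882). Pfkl was closest to 0610012G03Rik (0.810), Srebf1 (0.793), a regulator of lipid synthesis, and Dgat2 (0.792), an enzyme that completes triglycerides. Pfkp was closest to Ralgps1 (0.904), Dock5 (0.899) and Gdpd2 (0.888).

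Both hexokinases had Atp2a3, a calcium pump, among their nearest genes, at 0.927 for Hk1 and 0.774 for Hk2. Hk1 was also close to Stim1 (0.900), a calcium sensor of the endoplasmic reticulum, and Zc3h7b (0.876), and Hk2 to Tpr (0.824) and Irgm2 (0.776). Aldoa was closest to Map1lc3a (0.824) and Eif4ebp1 (0.818), and Gpi1 was close to Acp5 (0.827) and Lamtor1 (0.822). Pfkfb3 was closest to Nin (0.783), Pdzd2 (0.783) and Smarca2 (0.748), and Slc16a1 to Hspa4 (0.821), Mtx2 (0.807) and Rnf11 (0.796). With Pearson's correlation 13 of the 30 nearest genes were shared, and without CD M3 25 of the 30.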

How the data were processed

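Bulk RNA sequencing of the distal small intestine was deposited as 1 table of raw read counts per gene for 24 animals. Per the labels and methods, total RNA was depleted of ribosomal RNA, and the authors trimmed reads with Trimmomatic 0.39 and aligned them and made the counts with STAR 2.5.3a (genome GRCm38). Which annotation release and strand were counted is not given in the sources used here. Groups and replicate numbers came from the labels, and 0 columns belonged to other samples. Coordinates and exon lengths came from GENCODE M21, in which all 55536 identifiers were found. Symbols came from a separate list of gene names, which gave 55450 of the identifiers a symbol.

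Genes were filtered with filterByExpr on the group (13505 kept), scaled by TMM, and tested with edgeR 4.0.16 (quasi-likelihood, R 4.3.3) in 1 fit of all 24 libraries whose terms were group, sex label and replicate number, which left 17 residual degrees of freedom. The study used sex and sequencing block as covariates, and no label says that the replicate numbers are its blocks. Adjusted p-values (FDR) are Benjamini-Hochberg over all genes tested, or over 30 tests for ratios, with a threshold of 0.05. Log2 CPM used a prior count of 1 and log2 ratios a pseudocount of 0.5. Ratios were compared over pairs of the same sex label and replicate number with an exact two-sided sign-flip test (SciPy 1.17.1). Marker scores were mean z-scores of log2 CPM. The edgeR p-values set a difference against the spread between these animals, with the spread moderated across genes. The ratio p-values are the share of sign patterns over the pairs whose mean difference was at least as large.

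The replicate numbers were checked as pairs through deviations from the group means. These correlated by 0.130 on average in 72 pairs of the same number (lowest −0.478) and by −0.0644 in 144 pairs of different numbers (lowest −0.635). In the 36 pairs of the same number and sex label, the pairing used for the ratios, the mean was 0.167 (lowest −0.447). Libraries of the same number were more alike on average but not in every pair, so the numbers were not shown to pair the animals. They were kept as a block term in place of the study's block.

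The members and lists were chosen with earlier results of these data known. The text names members with an unadjusted p under 0.05 in a contrast or else the member with the smallest p, up to 3 genes a list at that level for metformin over both diets or diet over both drug states, the 3 nearest genes of each member, and for each ratio the contrast with the smallest p. Alternatives were DESeq2 1.42.0, limma-voom (limma 3.58.1, the study's method), RLE scaling, other filters, no block, no sex term, only the libraries compared, robust dispersion, marker scores as terms, and libraries left out. In each of the study's contrasts limma-voom here called 0 genes, whereas the study reported genes at an FDR under 0.05 in each. The reason for that difference was not tested. Scripts were tested on simulated data. Of 5 isozyme ratios, 1 is not reported here, though it counts among the 30 tests, nor are 2 of the nearest genes. A depth of 1829690 to 40606442 reads, with 29 reads at the least for a member, limits the precision of the lowest genes.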

Additional observations from a re-analysis of the deposited data

Results flagged for a closer look

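Of 60 sets of 6 libraries (10 genes and 5 ratios in 4 groups), 6 held a library whose gap to its nearest neighbour, as a share of the whole range, was above Dixon's 95% critical value. Chance exceeds that value in about 5% of sets of normally distributed values. Gene levels entered as CPM and ratios as log2 values. CPM can have a long upper tail, so that rate need not hold for gene levels. Their flags were not repeated on log2 CPM. For Hk2 a library was flagged in all 4 groups, each time the highest in CPM. CD F2 had 65.65 CPM against 41.53 in the next CD library, CDmetf M2 had 95.79 CPM against 45.89, the library labelled HFD M2 had 62.64 CPM against 35.33, and HFDmetf M1 had 59.34 CPM against 36.28. For Aldoa, HFDmetf M1 had 459.8 CPM against 293 CPM in the next library of its group. The log2 ratio of Pfkp to Pfkl counts was 2.08 in CD M3, the library with 85.4% of its reads on 10 genes, against 2.76 in the next CD library.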

How the results depend on the processing

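Of 1182 values recomputed for 36 results, 1074 kept their direction, side of the threshold or size, 82 counts or values moved, 24 lost and 2 gained significance, and 0 reversed. The logFC of Pfkl for the diet over both drug states lay between 0.41 and 0.62 with an unadjusted p under 0.05 in all 40 alternatives. Members called there went from 0 to 1 (Pfkl) with DESeq2, which called 54 of 13505 genes. Over single left-out libraries they ran from 0 to 1 (1 without HFD M2). Members at an unadjusted p under 0.05 went from 1 to 2 in HFD vs. CD with a macrophage score as a term (1 to 2 over left-out libraries). In HFDmetf vs. CDmetf they went from 1 to 2 with no low-count filter, with only the 12 libraries compared, and with a smooth muscle or an enterocyte score, and to 0 with a macrophage score (1 to 2 over left-out libraries). In HFDmetf vs. HFD they ran from 0 to 1 over left-out libraries (Ldha without HFD M2, Pkm without HFD F3). For metformin over both diets they went from 1 (Pkm) to 0 with no low-count filter, with no replicate block, with a B cell, smooth muscle, enterocyte or macrophage score, without HFD M2 and HFD F2 and with the filter on the full design (0 to 1 over left-out libraries). For the diet over both drug states they went from 2 to 1 with a smooth muscle score and without CD M3 and HFDmetf F2, and to 3 (Hk1 added) with an enterocyte or a macrophage score (1 to 3 over left-out libraries), and for male vs. female from 1 to 2 without HFD M2 and HFD F2 (1 to 2 over left-out libraries). Ratios called went from 1 (Pfkp to Pfkl) to 0 with no replicate block (−0.62, adjusted p = 0.0516) and without the pairs of HFD M2 and HFD F2 (−0.64, adjusted p = 0.176). The 10 pairs left without those libraries were too few for a ratio alone to pass after adjustment, whatever its values. That loss therefore cannot show whether the call rested on them. Over left-out pairs the ratios called ran from 0 to 1, with the log2 difference between −0.68 and −0.54. The replicate block changed no other call. The causes were not tested. The macrophage score, reads on genes, full-design filter and joint removal of CD M3 and HFDmetf F2 were chosen after seeing the data. Depth limits the lowest genes, Ldhb having as few as 9 reads in a library and the 10 genes as few as 29.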
